A study of Mus musculus with 8 samples.

Results

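Border-associated macrophages (BAMs) that carry Lyve1 and Cd163 transcripts were examined at the cortical lesion 6 days after photothrombotic ischemia (PT) in mice. The cells were chosen by their own transcripts in single-cell RNA sequencing (scRNA-seq). A droplet was taken as a cell with at least 2000 UMIs (unique molecular identifiers, 1 per captured transcript) and less than 20% mitochondrial UMIs. A cell was taken as a BAM when, per 10000 of its UMIs (cp10k), Mrc1, Pf4, F13a1 and Cbr2 summed to at least 5, Lyve1 and Cd163 to at least 1 and Tyrobp to at least 2. In addition, the microglia genes P2ry12, Tmem119, Sall1 and Siglech had to sum to less than 1, the endothelial genes Cldn5 and Flt1 to less than 2, and Col1a1 and Col1a2 to less than 10. These limits gave 200 BAMs of 46216 cells, 85 from saline mice and 115 from ancrod mice.

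BAMs are long-lived macrophages of the brain's borders, found along penetrating vessels in the perivascular space, in the meninges and in the choroid plexus. They take up material from blood and cerebrospinal fluid through scavenger and lectin receptors, among them CD163, the receptor for hemoglobin bound to haptoglobin, and CD206, the mannose receptor encoded by Mrc1. LYVE1 is a hyaluronan receptor shared with lymphatic endothelium, and in several tissues LYVE1 marks resident macrophages next to vessels that carry little MHC class II, the molecules that present antigen to CD4 T cells.

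The study asked how fibrinogen, the blood clotting protein that enters the perivascular space after injury, shapes scar formation, and it compared lesions of mice with and without circulating fibrinogen. Fibrinogen was depleted with ancrod, a snake venom enzyme, given at 2.4 U per day by a subcutaneous minipump from 2 days before PT until tissue collection, and control mice received saline by the same route. All 8 mice were labelled Female with the genotype Bl/J6, and all were injured over the right sensorimotor cortex by illumination of a region of 4 mm in diameter. There were 4 saline and 4 ancrod mice with 1 library per mouse, mice 1 to 3 of each group in 1 injury and sequencing batch and mouse 4 of each group in the other. The meninges were peeled off before the injury site was dissected, no cell type was enriched, and the labels do not say where in the tissue a given BAM lay. Fibrinogen itself was not measured by these libraries.

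The 8 libraries held 5080 to 6277 cells each, with median depths of 10653 to 17575 UMIs per cell. BAMs numbered 13, 19, 35 and 18 in saline mice 1 to 4 and 45, 17, 36 and 17 in ancrod mice 1 to 4. Their median depth was 23706 UMIs and 4789.5 genes, ranging from 2004 to 83474 UMIs. Saline mouse 1 had the shallowest BAMs, with a median of 13261 UMIs and 7 of 13 cells at 5000 UMIs or more. In the other mice the median depth was 17245 to 27738 UMIs. Free RNA, estimated from the astrocyte, oligodendrocyte and neuron transcripts in BAMs relative to droplets with at most 100 UMIs, came to 1.88% to 3.91% of the UMIs of BAMs in saline mice and to 4.99%, 23.6%, 6.95% and 4.01% in ancrod mice 1 to 4. Ancrod mouse 2 stood apart, and 1 of its BAMs held most of its astrocyte transcripts. Of 45940 distinct cell barcodes, 274 occurred in 2 or more libraries, 1 of them a BAM barcode that was another kind of cell in the other library.

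The markers that chose the BAMs describe them and test nothing. Both Lyve1 (chr7:110448585-110462460, minus strand, GRCm39) and Cd163 (chr6:124281606-124307560, plus strand, GRCm39) had UMIs in 121 BAMs, whereas 35 had UMIs of Lyve1 alone and 44 of Cd163 alone. The level of Lyve1, in CPM, the UMIs of the gene relative to the summed UMIs of the BAMs of a mouse, was 151, 463, 739 and 540.1 in saline mice 1 to 4 and 355, 383, 328 and 142 in ancrod mice 1 to 4. That of Cd163 was 468, 372, 329 and 332 against 528, 269, 334 and 434, so both genes varied from mouse to mouse and overlapped between treatments. Lyve1 had a UMI in 78% of BAMs and Cd163 in 82.5%, against 1.17% and 0.136% of Tyrobp-negative cells, whose median depth was 8843 to 13982.5 UMIs per mouse. The remaining border markers were broadly present, with Mrc1 in 98.5% of BAMs, F13a1, the coagulation factor XIII A chain, in 96% and Cbr2, a carbonyl reductase, in 91%. The microglial gene P2ry12 had a UMI in 55.5% of BAMs but never exceeded 0.989 cp10k, Tmem119 was found in 4% and Sall1 in 1%.

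Of the 6 limits, 2 excluded many cells by themselves, and the other 4 excluded 1 to 4 cells each. The lowest sum of Lyve1 and Cd163 among BAMs was 1.01 cp10k and the highest among cells that failed this limit alone was 0.989 cp10k, with a median of 6.98 in BAMs and 0 outside. A total of 1670 cells failed only this limit, and 28 of them lay within 2 times of it. The limit on microglia genes was the looser boundary, since 236 cells failed it alone and 128 of these were under 2 cp10k. With that limit moved to 2 cp10k, a change made after seeing these values, the difference in BAM share of cells between treatments was 0.170 percentage points in place of 0.129 and still 0 genes passed between treatments, though several gene differences given below became smaller.

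Folr2, a folate receptor used as a marker of resident macrophages and not part of the limits, had UMIs in 95.5% of BAMs, against 1.15% of Tyrobp-negative cells. Among the other phagocytes compared below, it had UMIs in 43.5% of macrophages low in Lyve1 and Cd163, 23.0% of microglia and 14.7% of infiltrating macrophages. Gas6, a bridging ligand for uptake of dying cells, had UMIs in 98% of BAMs, but also in 67.5% of microglia and 45.1% of Tyrobp-negative cells. The lectin Cd209f was found in 40%, the complement receptor Vsig4 in 45% and the phosphatidylserine receptor Timd4 in 34.5% of BAMs, so that these receptors were carried by some BAMs and not detected in the rest at this depth. Monocyte genes were scarce. Ccr2, the chemokine receptor of inflammatory monocytes, had UMIs in 7% of BAMs, and Ly6c2 was at 0 CPM in 6 of 8 mice.

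Several of the genes that set BAMs apart are shown here by their promoters, 250 bases before to 50 bases after the RefSeq transcription start, as examples of genes that were high together and hold a letter match. The sequences are from RefSeq on GRCm38.p6, a different build from that of the counts, and are written 5′ to 3′ in the direction of the gene. Capitals mark each match to TGCTGA, the core half-site recognised by MAF family factors, or to its reverse complement.
Timd4, chr11:46810549-46810848, plus strand: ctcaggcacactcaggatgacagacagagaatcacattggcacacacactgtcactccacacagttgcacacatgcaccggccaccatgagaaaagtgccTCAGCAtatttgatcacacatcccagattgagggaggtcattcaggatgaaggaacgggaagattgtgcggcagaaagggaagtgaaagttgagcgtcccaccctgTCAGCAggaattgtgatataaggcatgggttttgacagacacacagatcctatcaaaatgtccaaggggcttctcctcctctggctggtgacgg
Vsig4, chrX:96293389-96293688, minus strand: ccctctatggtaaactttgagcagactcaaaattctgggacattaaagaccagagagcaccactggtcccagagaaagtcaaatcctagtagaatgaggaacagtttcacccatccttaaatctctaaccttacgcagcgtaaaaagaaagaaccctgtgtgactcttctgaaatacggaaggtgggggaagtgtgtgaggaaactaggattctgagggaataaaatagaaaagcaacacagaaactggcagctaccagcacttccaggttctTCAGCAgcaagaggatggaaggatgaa
Fcna, chr2:25627925-25628224, minus strand: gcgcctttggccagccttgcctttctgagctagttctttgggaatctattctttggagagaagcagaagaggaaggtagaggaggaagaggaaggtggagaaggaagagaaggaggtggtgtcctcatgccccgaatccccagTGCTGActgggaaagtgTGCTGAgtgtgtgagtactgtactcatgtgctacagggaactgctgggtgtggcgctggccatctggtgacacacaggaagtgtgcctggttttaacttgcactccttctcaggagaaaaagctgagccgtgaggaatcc
Ccl8, chr11:82114935-82115234, plus strand: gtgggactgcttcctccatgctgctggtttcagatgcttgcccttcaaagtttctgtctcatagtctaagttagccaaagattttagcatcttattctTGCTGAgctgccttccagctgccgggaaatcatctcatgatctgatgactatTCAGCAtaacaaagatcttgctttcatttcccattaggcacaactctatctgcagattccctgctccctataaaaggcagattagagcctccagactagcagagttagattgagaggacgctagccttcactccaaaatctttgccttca
The half-site was found in a promoter of 24% of the 354 genes with a promoter among the 463 higher in BAMs than in all 3 other groups below, of 23.6% of 144 genes lower in all 3, of 17.4% of 7156 genes tested and of 21.7% of all 27025 genes with a promoter. GAGGAAGT, a site of the myeloid factor PU.1, was found in 3.39%, 5.56%, 4.12% and 3.69% of the same sets, on either strand, and in none of the promoters printed here. The genes were chosen for these matches, and a match is a run of letters that says nothing of binding. Maf itself, which encodes c-MAF, was at 808 to 1722 CPM in BAMs.

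To place BAMs among the lesion's phagocytes, they were compared within each mouse with 3 groups cut by the same kind of limits. These were 1670 macrophages that met the limit on border genes but had Lyve1 and Cd163 under 1 cp10k (Lyve1- and Cd163-low macrophages). The others were 1635 infiltrating macrophages, chosen by Ms4a7, Ccr2 or Arg1 with few border genes, and 15124 microglia. Lyve1- and Cd163-low macrophages met the border limit mostly through F13a1 and Pf4, with UMIs in 89.7% and 78.4% of them. Mrc1 had UMIs in 34.7% and Cbr2 in 24.4%, against 98.5% and 91% of BAMs, so the 2 groups differed in these border genes too. Because the groups were cut by transcripts of the same cells, the tests describe genes that go with the limits, and the genes of the limits were left out of the counts. UMIs were summed per mouse and tested with edgeR's quasi-likelihood test with the mouse as a block, at an adjusted p of 0.05. Differences are log2 of BAMs over the other group with the standard error (SE), on TMM-scaled counts, and levels are CPM given as the lowest, median and highest of 8 mice.

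BAMs differed from microglia in 6106 of 11796 genes (51.8%), with 2711 higher (23%) and 3395 lower (28.8%). From Lyve1- and Cd163-low macrophages they differed in 3209 of 9020 genes (35.6%), with 1605 higher (17.8%) and 1604 lower (17.8%). From infiltrating macrophages they differed in 3699 of 9082 genes (40.7%), with 1864 higher (20.5%) and 1835 lower (20.2%). Higher in BAMs than in all 3 groups, and in every mouse, were 463 of 8828 genes (5.24%), and 181 (2.05%) were lower in all 3. The genes that stood highest in all 3 were led by Cd209f, the secreted phospholipase Pla2g2d, Timd4, Vsig4, the receptor phosphatase Ptprk and the ficolin Fcna.

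The receptors Cd209f, Vsig4, Timd4, Clec10a and Colec12 and the secreted ficolin Fcna were higher in BAMs than in all 3 other groups. Other genes of these kinds were lower in all 3, such as the lectin receptors Olr1, Clec7a and Clec5a and the lipoprotein receptors Scarb1 and Lrp1, named after their values were seen. Cd209f was at 78.9 to 398 CPM in BAMs, with a median of 218, and at a median of 2 CPM or less in each of the other groups. The difference from Lyve1- and Cd163-low macrophages was 5.85 ± 0.49 on the log2 scale. Vsig4, which binds the complement fragment C3b, was at 36.0, 179 and 235 CPM, 5.09 ± 0.39 above Lyve1- and Cd163-low macrophages. Timd4 was at 8.85, 34.3 and 91.3 CPM in BAMs, and its 191 UMIs there compared with 11 in the 1670 Lyve1- and Cd163-low macrophages and 5 in the 15124 microglia. Fcna was at 86.5, 294 and 519.7 CPM, 4.73 ± 0.25 above the Lyve1- and Cd163-low cells. The lectin Clec10a had 138, 251 and 334 CPM and the scavenger receptor Colec12 319, 372 and 532 CPM, 3.75 ± 0.14 and 3.66 ± 0.15 above the same cells. Each of these 6 genes was higher in BAMs in all 8 mice and against all 3 groups. Clec7a, also called Dectin-1, was at 27.9, 74.97 and 187 CPM, and Olr1 was at most at 0.774 CPM in any mouse.

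Of 27 further genes listed for BAMs and not used to choose them, 22 of the 24 tested were higher than in microglia, 22 of 25 higher than in Lyve1- and Cd163-low macrophages and 21 of 23 higher than in infiltrating macrophages. In the same order, 23%, 17.8% and 20.5% of all genes tested were higher. Their median differences were 4.55, 2.84 and 4.16, against -0.11, -0.01 and -0.03 over all genes tested. The list was chosen with earlier results of these data known, so its counts are no independent check. Folr2 was at 382, 609 and 703 CPM in BAMs and at a median of 91.8 CPM in Lyve1- and Cd163-low macrophages, 35.8 in microglia and 17.8 in infiltrating macrophages. Selenop, the plasma selenium carrier, was at 2877, 3523 and 4576 CPM and the endocytic adaptor Dab2 at 1093, 1403 and 1922 CPM. Against Lyve1- and Cd163-low macrophages these genes differed by 2.34 ± 0.14, 1.42 ± 0.08 and 2.13 ± 0.12. Ms4a7, often used as a BAM gene, was 0.29 ± 0.09 below those cells and did not pass against infiltrating macrophages, some of which were chosen by it.

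**Figure D1:**
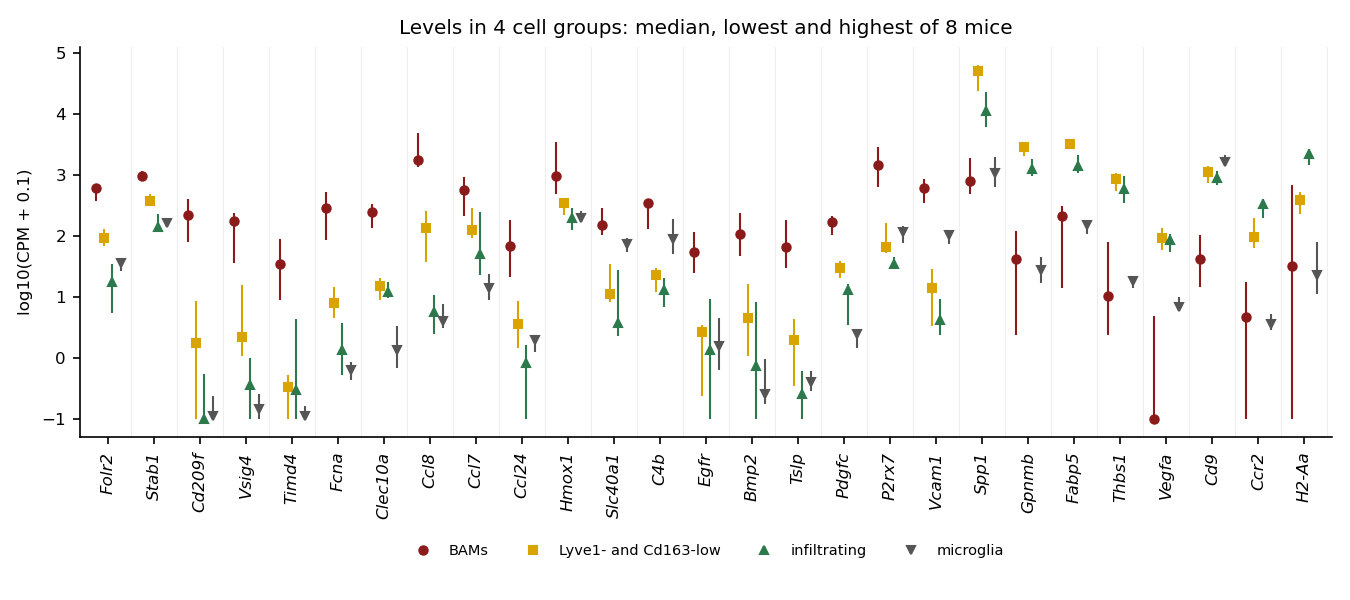
Levels of 27 genes in BAMs (circles), Lyve1- and Cd163-low macrophages (squares), infiltrating macrophages (upward triangles) and microglia (downward triangles), as log10 of CPM plus 0.1; symbols are medians and lines span the lowest to the highest of 8 mice. BAMs stand above the other groups from Folr2 to Vcam1, with Folr2 at a median of 609 CPM against 91.8 in the Lyve1- and Cd163-low cells, and below the Lyve1- and Cd163-low and infiltrating macrophages from Spp1 to H2-Aa.

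Chemokines for monocytes and eosinophils were prominent. Ccl8 was at 1376, 1744 and 4925 CPM in BAMs and at medians of 136 CPM in Lyve1- and Cd163-low macrophages, 5.64 in infiltrating macrophages and 4.05 in microglia. Ccl7 was at 216, 567 and 931 CPM, Ccl2 at 598, 1195 and 2018 CPM and the eosinophil attractant Ccl24 at 21.4, 67.7 and 186 CPM. All 4 exceeded each of the other groups in all 8 mice, Ccl2 by 1.46 ± 0.17 and Ccl7 by 1.59 ± 0.26 against the Lyve1- and Cd163-low cells. Ccl3 and Ccl4, in contrast, were 1.60 ± 0.14 and 1.97 ± 0.14 lower than in microglia. Of 16 chemokine genes, 10 of 14 tested were higher than in Lyve1- and Cd163-low macrophages and 11 of 14 higher than in infiltrating macrophages, with 1 and 2 lower. Against microglia 8 of 16 were higher and 4 lower. For scale, 17.8%, 20.5% and 23% of all genes tested were higher in these comparisons, in the same order, and 17.8%, 20.2% and 28.8% lower.

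The complement genes C4b and C2 were higher in BAMs than in all 3 other groups. C4b was at 130, 345 and 412 CPM and C2, which forms the classical convertase with C4b, at 39.5, 60.2 and 77.7 CPM. Against Lyve1- and Cd163-low macrophages they differed by 3.59 ± 0.13 and 4.11 ± 0.32. C1qa, which starts the cascade, was at 3805, 4110 and 5436 CPM, 0.75 ± 0.09 below microglia and 1.00 ± 0.12 above infiltrating macrophages. In all, 7 of 12 complement genes were higher and 2 lower than in the Lyve1- and Cd163-low cells, 10 of 12 higher and 1 lower than in infiltrating macrophages and 6 of 13 higher and 3 lower than in microglia. Shares over all genes tested were 17.8%, 20.5% and 23% higher and 17.8%, 20.2% and 28.8% lower, in the same order.

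Genes for the handling of heme and iron were higher in their heme-degrading and iron-exporting members. Hmox1, heme oxygenase, was at 484, 953 and 3416 CPM, and its highest value came from saline mouse 1. Blvrb, a biliverdin reductase, was at 396, 493 and 620 CPM, and Slc40a1, which encodes the iron exporter ferroportin, at 106, 151 and 287 CPM. They exceeded Lyve1- and Cd163-low macrophages by 1.49 ± 0.22, 1.47 ± 0.11 and 3.29 ± 0.28. The ferritin genes, which store iron, were lower, Ftl1 by 0.86 ± 0.07 and Fth1 by 0.52 ± 0.07. Of 14 genes of this list tested, 9 were higher than in Lyve1- and Cd163-low macrophages and 4 lower, 10 higher than in infiltrating macrophages and 4 lower, and 11 higher than in microglia and 3 lower. In the same order, 17.8%, 20.5% and 23% of all genes tested were higher and 17.8%, 20.2% and 28.8% lower.

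Among growth factors, BAMs were marked by Bmp2 (47.7, 107 and 243 CPM), Pdgfc (106, 172 and 214 CPM) and the EGF receptor ligand Hbegf (28.8, 56.2 and 111 CPM). These exceeded Lyve1- and Cd163-low macrophages by 4.36 ± 0.29, 2.13 ± 0.15 and 3.16 ± 0.20 and were higher than all 3 groups in every mouse. Tslp, an epithelial and stromal cytokine, was at 30.2, 66.5 and 180.2 CPM, with a median of 1.89 CPM in the Lyve1- and Cd163-low cells and less in the other groups. The receptor genes Egfr (25.3, 55.1 and 115 CPM) and Fgfr1 (34.3, 56.6 and 137 CPM) were 4.38 ± 0.39 and 3.83 ± 0.23 above the Lyve1- and Cd163-low cells. P2rx7, the ATP-gated channel, was at 626, 1471 and 2892 CPM and Vcam1, an adhesion molecule, at 343, 610 and 875 CPM, 3.95 ± 0.21 and 5.30 ± 0.24 above. Pdgfb was 2.89 ± 0.22 below microglia, and Tgfb1 did not pass against either macrophage group. Over the whole list of 19 growth factors and matrix ligands, 6 of 16 were higher and 6 lower than in Lyve1- and Cd163-low macrophages, so the list did not move as one.

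Spp1, Gpnmb, Fabp5 and Thbs1 were far lower in BAMs than in Lyve1- and Cd163-low macrophages. Spp1, osteopontin, was at 497, 802 and 1869 CPM in BAMs and at 23614, 50827 and 63863 CPM in Lyve1- and Cd163-low macrophages, a difference of -5.89 ± 0.31. Gpnmb was at 2.32, 41.6 and 121 CPM against a median of 2889 CPM, Fabp5 at 14.3, 210 and 317 CPM against 3278 CPM and Thbs1 at 2.32, 10.5 and 79.7 CPM against 876 CPM. Vegfa, the hypoxia-driven angiogenic factor, had no UMI in 5 of 8 mice and at most 4.88 CPM in the others, against 58.8 to 133 CPM in the Lyve1- and Cd163-low cells. It was named after its values were seen. Tnfsf8 had no UMI in any BAM and was at least 19.5-fold lower than in Lyve1- and Cd163-low macrophages, taking 3 UMIs over all BAMs as the limit that a count of 0 allows. Cd9 was 4.63 ± 0.22 lower, and the cystine transporter Slc7a11 4.10 ± 0.35 lower. Of lipid genes, 12 of 18 were lower than in the Lyve1- and Cd163-low cells and 3 higher, among them the scavenger receptor Cd36 by 1.43 ± 0.13. In that comparison 17.8% of all genes tested were lower and 17.8% higher. Apoe was at 17062, 19777 and 26932 CPM in BAMs, 1.69 ± 0.07 below those cells, and did not pass against microglia. Against microglia, 8 of 17 lipid genes were higher and 1 lower, with a median difference of 0.31, where 23% of all genes tested were higher and 28.8% lower.

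Lysosomal and glycolytic genes followed the same direction against Lyve1- and Cd163-low macrophages. There 14 of 16 lysosomal genes were lower and 1 higher, with Ctsd at 2162, 3245 and 3849 CPM against a median of 10397 CPM. Of the glycolysis and hypoxia genes 13 of 14 were lower and none higher, including Hif1a by 1.29 ± 0.10 and Ldha by 0.63 ± 0.10. Against infiltrating macrophages 11 of 13 glycolysis and hypoxia genes were lower and none higher, while the lysosomal genes were split, 6 higher and 7 lower of 16. Fibrinogen receptors were lower as well. Itgam and Itgb2, the subunits of the fibrin receptor Mac-1, were at 36.0, 97.4 and 145 CPM and at 86.5, 104 and 117 CPM in BAMs, 0.89 ± 0.15 and 1.19 ± 0.10 below the Lyve1- and Cd163-low cells, and 7 of 12 integrin and adhesion genes tested were lower and 3 higher. Over all genes tested, 17.8% were lower and 17.8% higher against these cells. Against infiltrating macrophages the shares were 20.2% and 20.5%.

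MHC class II genes separated BAMs from infiltrating macrophages. H2-Aa was at 0, 33.0 and 689.7 CPM in BAMs and at 1435, 2233 and 2642 CPM in infiltrating macrophages, and Cd74, the class II chaperone, at 71.5, 193 and 1754 CPM against 2999, 4732 and 5704 CPM. The differences were -4.89 ± 0.56 and -4.33 ± 0.41. Against microglia both were higher in 5 of 8 mice, by 1.48 ± 0.38 and 0.85 ± 0.24, and the highest BAM values came from saline mouse 4. Of the MHC class II and costimulation list, 8 of 10 genes tested were lower and 2 higher than in infiltrating macrophages. Against Lyve1- and Cd163-low macrophages 6 of 9 were lower and 2 higher, and against microglia 5 of 12 were lower and 5 higher. In the same order, 20.2%, 17.8% and 28.8% of all genes tested were lower and 20.5%, 17.8% and 23% higher. Monocyte markers were lower in 9 of 9 genes against Lyve1- and Cd163-low macrophages and in 7 of 7 counted against infiltrating macrophages, a group chosen in part by Ccr2 and Arg1, which are not among the 7. Over all genes tested, 17.8% and 20.2% were lower in these 2 comparisons. The infiltrating group also held natural killer cell transcripts such as Gzma, with 4220 UMIs there and 0 in BAMs, so genes of those cells enter this comparison.

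**Figure D2:**
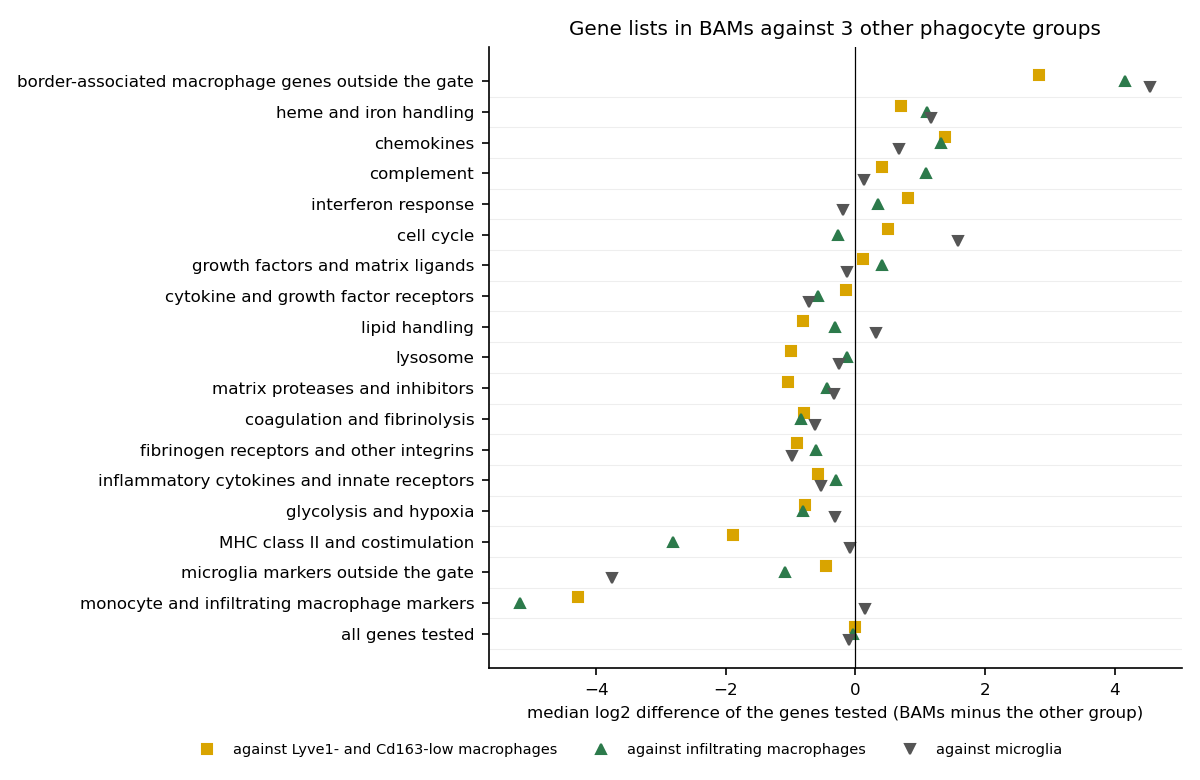
Median log2 difference of the tested genes of each list, BAMs minus Lyve1- and Cd163-low macrophages (squares), infiltrating macrophages (upward triangles) or microglia (downward triangles), with 0 marked by a line. The BAM gene list lies at 2.84 to 4.55, while MHC class II genes lie at -1.89 and -2.82 against the macrophage groups and glycolysis genes at -0.78 and -0.82.

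BAMs were not uniform. MHC class II transcripts (H2-Aa, H2-Ab1, H2-Eb1 and Cd74) had a median of 0.24 cp10k, 93 BAMs had none, and 14 had 20 cp10k or more with a median of 157 cp10k. Of these 14, 13 had Cd163 UMIs and 5 had Lyve1 UMIs, compared with 152 and 151 of the 186 others. Every BAM needed UMIs of Lyve1 or Cd163, so the limits tie these counts to each other and they only describe the cells. Median depths were 18115 UMIs in the 14 and 24069 UMIs in the others. The highest class II level below the cut was 18.4 cp10k. Too few cells and mice held both kinds for a test of other genes. The class II-high share was 0 of 13, 1 of 19, 2 of 35 and 8 of 18 BAMs in saline mice 1 to 4, and 2 of 45, 0 of 17, 0 of 36 and 1 of 17 in ancrod mice 1 to 4. With a count of 0, shares of up to 23.1%, 17.6% and 8.33% remain possible in saline mouse 1, ancrod mouse 2 and ancrod mouse 3. Saline mouse 4 alone thus supplied 8 of the 14 cells. Its microglia were class II-high in 9.97% of cells, against 0.474% to 1.30% in the other 7 mice.

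Over 8 mice the class II-high share was 8.22% ± 14.9 (SD) in BAMs, 40.5% ± 4.03 in infiltrating macrophages, 13.5% ± 4.44 in Lyve1- and Cd163-low macrophages and 2.00% ± 3.23 in microglia. The share was lower in BAMs than in infiltrating macrophages in 7 of 8 mice, by 32.3 percentage points (two-sided exact permutation by sign flips, p = 0.0156 and, over the 6 share comparisons made, adjusted p = 0.0469). Against Lyve1- and Cd163-low macrophages it was also lower in 7 of 8 mice, by 5.26 percentage points, and did not pass (exact permutation p = 0.391), and saline mouse 4, the 1 mouse with a higher share in BAMs, decided this. Without that mouse the difference was -10.7 percentage points, lower in 7 of 7 mice (exact permutation p = 0.0156, the smallest that 7 mice allow), an alternative chosen after the data were seen. The share did not pass against microglia (exact permutation p = 0.0625, adjusted p = 0.125). That difference was 6.22 percentage points, and 2.18 without saline mouse 4, where the mean share of BAMs was 3.04%. The smallest p that 8 mice allow in this test is 0.0078. The 6 comparisons were added after the values were seen, and the adjustment did not take in the share tests between treatments.

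Interferon-response genes varied in another way. Summed over the genes of the list, each BAM had 2.93 to 200 cp10k with a median of 18.3, and 89 BAMs had 20 cp10k or more. By mouse, 8 of 13, 14 of 19, 12 of 35 and 15 of 18 BAMs were above 20 cp10k under saline and 18 of 45, 7 of 17, 11 of 36 and 4 of 17 under ancrod. Lyve1 UMIs were present in 58 of these 89 BAMs and in 98 of the 111 others, and the median depths were 18448 and 27431 UMIs. Since Lyve1 belongs to the limits, these counts only describe the cells. Against Lyve1- and Cd163-low macrophages, 8 of 16 interferon-response genes were higher in BAMs and none lower, for example Ifitm3 by 0.89 ± 0.17. There 17.8% of all genes tested were higher and 17.8% lower. Against infiltrating macrophages 3 of 16 were higher and none lower, where 20.5% of all genes tested were higher. Against microglia 3 were higher and 2 lower with a median of -0.19, no more than the 23% and 28.8% over all genes tested.

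**Figure D3:**
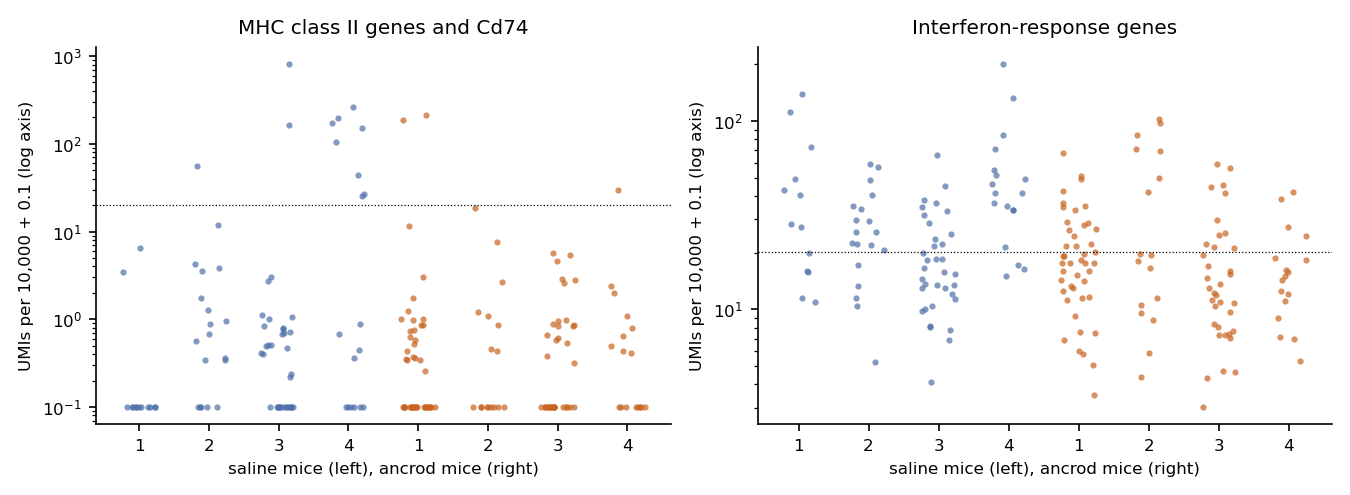
Each point is 1 BAM, by mouse, with its UMIs per 10000 plus 0.1 on a log axis for the 4 MHC class II transcripts (left) and for the interferon-response genes (right); the dotted lines mark 20 cp10k. Of 14 BAMs above the class II line, 8 are from saline mouse 4, and the 89 BAMs above the interferon line are spread over all mice.

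Some BAMs were dividing. Each BAM was thinned to 5000 UMIs and counted as dividing if more than 1 of the mitotic genes Cdk1, Ccnb2, Cenpf, Top2a and Mki67 was detected, which left out 19 saline and 13 ancrod BAMs. The share was 0 of 7, 1 of 14, 4 of 30 and 1 of 15 in saline mice 1 to 4 and 6 of 41, 1 of 13, 3 of 31 and 1 of 17 in ancrod mice 1 to 4. Without thinning, 54 of 200 BAMs met the rule, which depends on depth. In 7 of 8 mice BAMs divided at a higher share than microglia. The means were 8.13% ± 4.57 and 1.697% ± 0.64 (two-sided exact permutation by sign flips, p = 0.0156, adjusted p = 0.0469 over the 6 share comparisons added after the values were seen). The share did not pass against Lyve1- and Cd163-low macrophages (6.10% ± 3.07, exact permutation p = 0.312) or infiltrating macrophages (11.3% ± 4.96, exact permutation p = 0.297). At full depth it was 12 percentage points above the Lyve1- and Cd163-low cells (exact permutation p = 0.0156) and 9.25 points above infiltrating macrophages (exact permutation p = 0.0625), the latter a reversed direction. Of 17 cell cycle genes, 16 were higher in BAMs than in microglia, including Mki67 by 1.60 ± 0.27, where 23% of all genes tested were higher. Against the Lyve1- and Cd163-low cells 6 were higher, where 17.8% of all genes were. Against infiltrating macrophages 2 were lower and none higher, and 2 of 17 is no more than the 20.2% of all genes that were lower there.

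The first question for ancrod was whether fibrinogen depletion altered the number of BAMs. BAMs made up 0.226%, 0.341%, 0.558% and 0.324% of cells in saline mice 1 to 4 and 0.761%, 0.288%, 0.583% and 0.335% in ancrod mice 1 to 4. Ancrod mouse 1 was the highest and saline mouse 1 the lowest, and the other 6 were interleaved. The means were 0.362% ± 0.140 (SD, n = 4) and 0.492% ± 0.221 (SD, n = 4), a difference of 0.129 percentage points (exact permutation test over 70 arrangements, two-sided, p = 0.371). Without ancrod mouse 1 the difference was 0.0394 percentage points, without saline mouse 1 it was 0.0839 and without ancrod mouse 2 it was 0.197. Among Tyrobp-positive cells the means were 0.558% ± 0.161 and 0.756% ± 0.253 (exact permutation p = 0.229). The smallest p this design allows is 0.0286, and the exact 95% binomial interval of ancrod mouse 2, for example, ran from 0.168% to 0.460%. Intervals and limits for a count of 0 cover counting error only. Shares of dissociated cells also move with how many other cells were freed.

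Neither subset passed a test between treatments. The class II-high share was 13.9% ± 20.6 under saline and 2.58% ± 3.04 under ancrod (exact permutation p = 0.371), and the difference of -11.3 percentage points was -1.08 without saline mouse 4 and -2.18 within batch 1. The dividing share was 6.79% ± 5.45 under saline and 9.47% ± 3.77 under ancrod (exact permutation p = 0.400). That difference of 2.69 percentage points was 0.424 without saline mouse 1, 0.965 without ancrod mouse 1 and 4.87 without saline mouse 3. Without thinning it was 10.3 percentage points (exact permutation p = 0.0857).

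**Figure D4:**
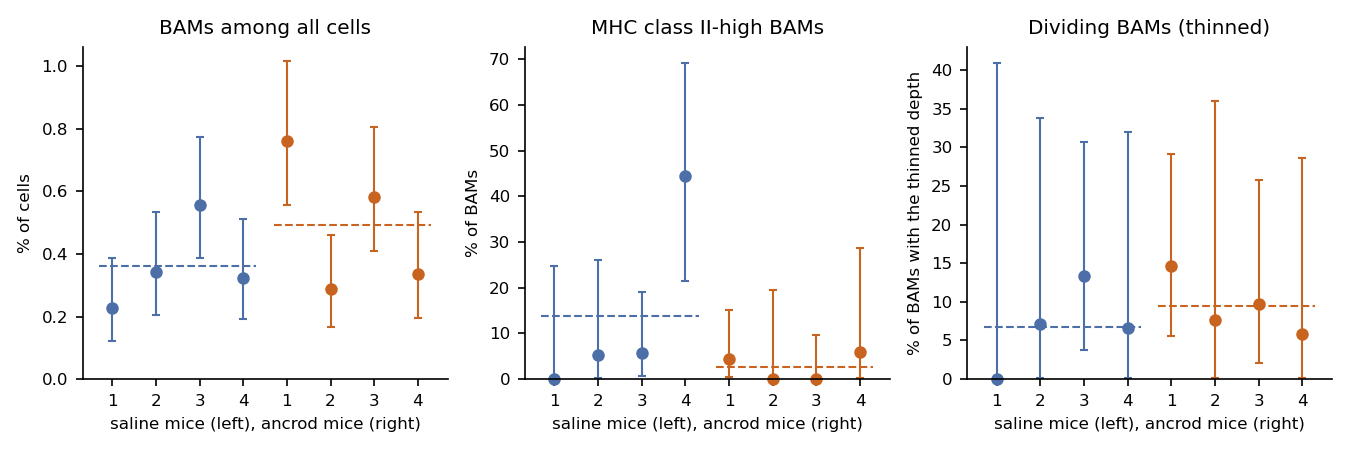
Share of BAMs among all cells, MHC class II-high share of BAMs and dividing share of BAMs after thinning, in percent, for saline mice 1 to 4 (blue) and ancrod mice 1 to 4 (orange); bars are exact 95% binomial intervals that cover counting error only and dashed lines are group means. The groups overlap in all 3 panels, and saline mouse 4 stands apart at 44.4% class II-high.

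The second question was whether fibrinogen depletion altered gene expression of BAMs. In edgeR's quasi-likelihood test on the summed UMIs of each mouse, 0 of 6195 genes passed an adjusted p of 0.05 (0%), 327 (5.28%) had an unadjusted p under 0.05, and the 4 saline and 4 ancrod mice did not overlap for 219 (3.54%). DESeq2 called 1 gene, Lpl. In counts simulated from these libraries, edgeR recovered 54.3% of genes changed by 1 on the log2 scale and 98.8% of those changed by 2. That simulation changed 92 genes by 1 and 85 by 2 at once, which makes the adjusted threshold easier to reach. Recovery may be lower where few genes change, so these shares do not give the power of the test above. All values below are therefore descriptions of genes that did not pass, given with the log2 difference of ancrod over saline ± SE. This difference was positive for 3030 of the 6195 genes, the share to set beside the counts of positive genes below.

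None of the identity genes of BAMs passed the test between treatments. Folr2 was at 382, 703, 613 and 637 CPM in saline mice 1 to 4 and 512, 606, 550.4 and 650.4 CPM in ancrod mice 1 to 4, a difference of -0.05 ± 0.18. Stab1, a scavenger receptor, was at 1023, 1146, 909 and 826 CPM against 921, 845, 1078 and 1046 CPM, a difference of -0.02 ± 0.15. Of 25 BAM genes tested, 10 were positive and their median was -0.05, against -0.008 over all genes. Timd4 had the lowest p of the list, at 43.2, 31.4, 47.9 and 91.3 CPM under saline and 25.5, 37.1, 29.8 and 8.85 CPM under ancrod, with overlap between the groups.

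Lpl, lipoprotein lipase, had the lowest p of all genes. It was at 28.8, 71.5, 23.4 and 33.0 CPM in saline mice 1 to 4 and 95.9, 121, 112 and 223 CPM in ancrod mice 1 to 4. All ancrod mice lay above all saline mice, with a difference of 1.83 ± 0.37 (edgeR adjusted p = 0.766). Apoe was at 25128, 26932, 21172 and 20774 CPM under saline and 17062, 18781, 17568 and 18158 CPM under ancrod, without overlap, a difference of -0.42 ± 0.11 (edgeR adjusted p = 0.766). With the microglia limit at 2 cp10k these differences were 1.07 for Lpl and -0.15 for Apoe, and with BAMs thinned to 5000 UMIs, which leaves out saline mouse 1, that of Apoe was -0.16. Over 15 lipid genes, 6 were positive and the median was -0.04.

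Of genes called in an earlier analysis of border macrophages in the same libraries, 3 could be tested. Pik3r5, a regulatory subunit of PI3 kinase gamma, was at 64.9, 22.9, 41.0 and 17.5 CPM under saline and 117, 104, 77.4 and 73.0 CPM under ancrod. The groups did not overlap and the difference was 1.49 ± 0.31 (edgeR adjusted p = 0.766). Emp1, a membrane protein, was at 108, 2.86, 121 and 17.5 CPM against 248, 255, 127 and 321 CPM, and Laptm4b, a lysosomal membrane protein, at 43.2, 31.4, 38.1 and 31.1 CPM against 22.4, 16.3, 20.3 and 13.3 CPM. Neither gene overlapped between groups, with differences of 1.92 ± 0.57 and -0.90 ± 0.26 (edgeR adjusted p = 0.8005 and 0.766). Since the earlier call rested on overlapping cells, their separation here is no independent evidence. Clec4e, the other such gene, encodes the receptor Mincle and was too low in BAMs to be tested, at 0, 2.86, 12.7 and 0 CPM under saline and 30.9, 62.7, 9.53 and 50.9 CPM under ancrod, and it was detected in 13.5% of BAMs against 41.0% of Lyve1- and Cd163-low macrophages.

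Of 16 gene lists examined, 3 had summed levels that did not overlap between treatments, and no gene of these lists passed the test. Among single genes, 219 of 6195 (3.54%) did not overlap, and how often sums of other genes separate the groups was not tested. The summed level of the fibrinogen receptors and other integrins, with their ligand Icam1, was 1081, 1295, 1238 and 1473 CPM in saline mice 1 to 4 and 1568, 1635, 1575 and 1748 CPM in ancrod mice 1 to 4, without overlap. The summed level of the lipid list, most of it Apoe, was also without overlap, at 26390 to 33119 CPM against 23134 to 25515 CPM, as was that of the MHC class II and costimulation list given below. Of 10 integrin and adhesion genes tested, 7 were positive with a median of 0.24, among them Icam1 at 209, 134, 96.7 and 192 CPM against 279, 237, 237 and 249.99 CPM, a difference of 0.70 ± 0.24. Itgam was at 36.0, 60.0, 111 and 83.5 CPM against 145, 81.3, 117 and 126 CPM, which overlapped. Syk, the kinase downstream of such receptors, was at 101, 123, 225 and 144 CPM against 247, 235, 231 and 228 CPM, without overlap, a difference of 0.59 ± 0.21. In edgeR's test the adjusted p was 0.883 for Icam1 and Syk. The inflammatory list as a whole had 12 of 17 genes positive with a median of 0.28. Over all genes tested, 3030 of 6195 were positive with a median of -0.008.

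Cd44, the receptor for hyaluronan, and Bag3, a co-chaperone, were named after their values were seen because 1 mouse decided their call. Cd44 was at 28.8, 85.7, 261 and 60.2 CPM in saline mice 1 to 4 and 400.02, 388, 384 and 259 CPM in ancrod mice 1 to 4, so that only saline mouse 3 reached the ancrod range. The difference was 1.53 ± 0.41 (edgeR adjusted p = 0.766) and 2.46 ± 0.29 without saline mouse 3 (edgeR adjusted p = 0.00859). Bag3 was at 231, 171, 161 and 33.0 CPM against 65.8, 53.4, 48.8 and 33.2 CPM, and saline mouse 4 was at the ancrod level. Without that mouse the difference was -1.82 ± 0.24 (edgeR adjusted p = 0.0428). The heat-shock gene Hspa1a, a sign of dissociation stress, followed a like order at 1816, 1803, 1233 and 398 CPM against 853, 704, 914 and 398 CPM. The summed stress genes ranged from 8185 to 15631 CPM under saline and from 10422 to 13423 CPM under ancrod, and their part in these values was not tested.

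**Figure D5:**
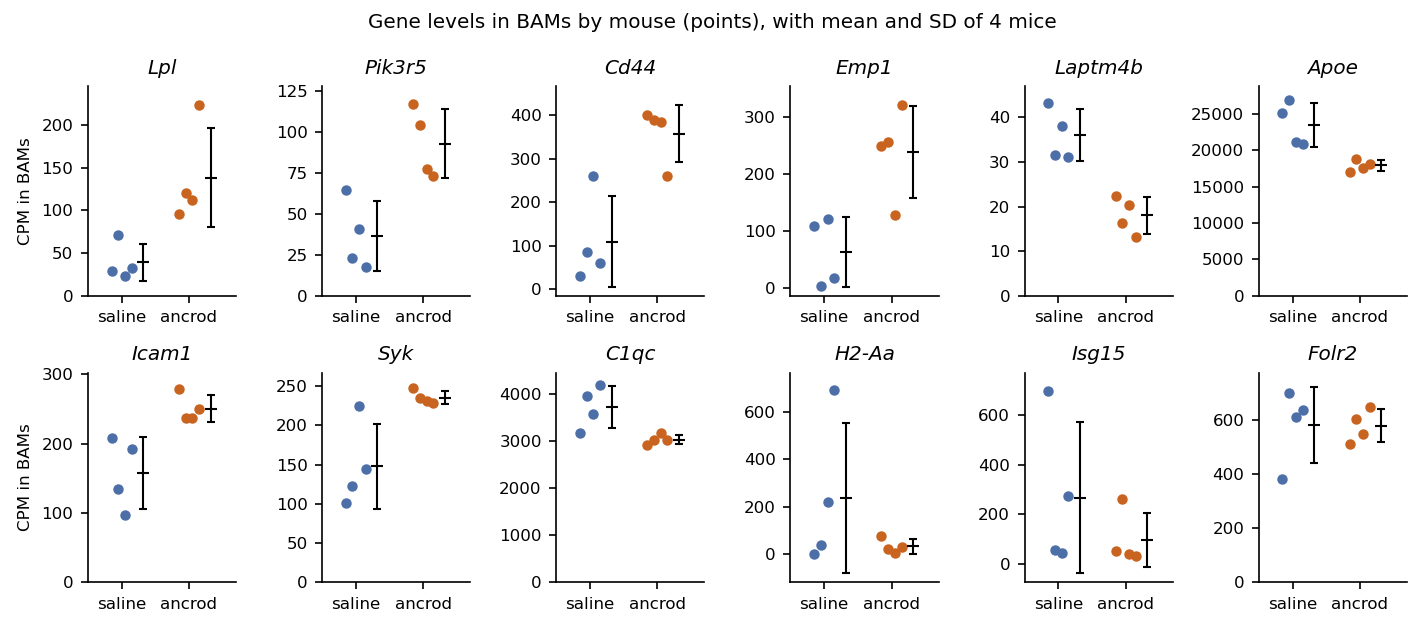
CPM of 12 genes in the BAMs of each mouse (points), with the mean and SD of 4 saline and 4 ancrod mice beside them. Lpl, Pik3r5, Emp1, Laptm4b, Apoe, Icam1, Syk and C1qc separate the groups and Cd44 does so but for saline mouse 3. H2-Aa and Isg15 overlap and are widely spread among the saline mice, and Folr2 overlaps. The genes drawn do not stand for all genes, of which 219 of 6195 (3.54%) separated the groups. No gene passed the edgeR test.

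No gene of the antigen presentation and interferon lists passed the test between treatments. The summed level of MHC class II and costimulation genes was 2018, 1695, 1766 and 4523 CPM in saline mice 1 to 4 and 1510.3, 1012, 1284 and 1449 CPM in ancrod mice 1 to 4, without overlap. H2-Aa was at 0, 37.2, 219 and 689.7 CPM in saline mice 1 to 4 and 76.6, 23.2, 3.57 and 28.8 CPM in ancrod mice 1 to 4, a difference of -2.87 ± 0.90 (edgeR adjusted p = 0.883) that was -1.60 without saline mouse 4. The class II list had a median of -1.33 with 2 of 9 genes positive. Isg15, a ubiquitin-like interferon product, was at 699, 57.2, 42.0 and 272 CPM against 53.4, 260.0, 39.3 and 31.0 CPM. Saline mice 1 and 4 were high and ancrod mouse 2 about as high as saline mouse 4, and the difference of -1.41 ± 0.84 was -0.48 without saline mouse 1 and -0.02 among BAMs with at least 3 cp10k of Lyve1 and Cd163. None of 15 interferon genes was positive, their median was -0.93, and the summed level of the list was 5801, 2389, 1574 and 4756 CPM against 1772, 3102, 1813 and 1540 CPM, with overlap.

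Of 12 complement genes tested, 5 were positive, the median was -0.18 and none passed. C1qa, C1qb and C1qc differed by -0.30, -0.28 and -0.32, with C1qc at 3171, 3953, 3574 and 4175 CPM against 2917, 3021, 3157 and 3015 CPM and an edgeR adjusted p of 0.897. Of 14 cell cycle genes, 13 were positive with a median of 0.40, where saline mice 1 and 4 had the lowest sums, 375 and 517 CPM, against 768 to 1438 CPM in ancrod mice and 1163 and 1196 CPM in saline mice 2 and 3. Chemokines were even, with 5 of 13 positive and a median of -0.05, and Ccl8 was at 1376, 1643, 1583 and 4925 CPM against 2010.1, 1892, 1445 and 1845 CPM. Of 14 heme and iron genes 8 were positive, of 16 lysosomal genes 7, of 15 growth factors 8, of 11 glycolysis genes 8 and of 14 cytokine and growth factor receptors 2. The 6 coagulation genes tested and the 5 matrix proteases tested were positive in 5 and 5 cases.

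Transcripts of other cell types were summed in the BAMs of each mouse. Astrocyte markers summed to 28.3 to 105 CPM under saline and to 113, 1460, 176 and 84.1 CPM in ancrod mice 1 to 4. In ancrod mouse 2, 89.98% of them came from 1 BAM with 29838 UMIs. T and NK cell markers had UMIs only in saline mouse 3, at 37.1 CPM, and the red cell genes Hba-a1 and Hba-a2 were at 0 in all mice. Monocyte markers summed to 28.8, 28.6, 309 and 105 CPM in saline mice 1 to 4 and 425, 237, 138 and 316 CPM in ancrod mice 1 to 4, so that the 3 lowest values were of saline mice and the groups overlapped. Their part in the values of Cd44, Lpl and the integrins was not tested. Microglia markers outside the limits summed to 1271 to 1912 CPM under saline and 1364 to 1739 CPM under ancrod. Removing the 6 BAMs with the highest doublet scores left 0 genes called, as did subtracting free RNA.

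Whether ancrod acted on BAMs differently from other phagocytes was tested as an interaction. For 0 of 12554 genes (0%) did the ancrod effect differ between BAMs and microglia at an adjusted p of 0.05 in edgeR, with 678 at an unadjusted p under 0.05 and 1, Ly6e, called by DESeq2. Against infiltrating macrophages it was 0 of 9967 genes (0%), with 365 at an unadjusted p under 0.05 and 1, Cd44, called by DESeq2. Ly6e was chosen after its values were seen. The effect on Lpl was 1.64 ± 0.32 larger in BAMs than in microglia (edgeR adjusted p = 0.207), and that on Cd44 1.85 ± 0.31 larger than in infiltrating macrophages (edgeR adjusted p = 0.319). Leaving out saline mouse 2 gave 2 calls against microglia, saline mouse 3 gave 4, ancrod mouse 2 and ancrod mouse 3 gave 1 each, and saline mouse 3 gave 1 against infiltrating macrophages. Against microglia these were Lpl and the chemokine Ccl5 without saline mouse 2, Cd44, Ifi203, Oasl1 and Axl without saline mouse 3, and Ccl5 without either ancrod mouse. Against infiltrating macrophages the call was Cd44. Over all mice Ifi203, Oasl1 and Axl were at -1.60, -1.76 and -1.40 against microglia, and Ccl5 at -3.20 ± 0.52 with an edgeR adjusted p of 0.0695. These 4 genes were chosen after their values were seen. Of 16 interferon-response genes, 0 were positive against microglia, with a median of -0.91, and none passed. In simulated counts the interaction test recovered 62.4% of effects of 2 on the log2 scale against microglia and 61% against infiltrating macrophages. It recovered 30.5% and 15.6% of effects of 1, and 10.7% and 6.2% of its calls were false. Many genes were changed at once there too, so recovery may be lower where few change.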

How the data were processed

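Single-cell suspensions of 8 lesions, 1 mouse each, were profiled with 10x 3′ v3.1 chemistry. The deposited values are UMI counts per gene and barcode, made by the authors with Cell Ranger 7.1.0, STAR and GRCm39 (mm39) according to the submitters' processing notes. All values were unfiltered counts of 21848 genes, and the libraries held 97861434 to 142139441 UMIs.

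Droplets with at least 2000 UMIs and less than 20% mitochondrial UMIs were taken as cells. The members, gene lists and other groups were chosen with earlier results of these data known, and no deposited cell annotation was used. Doublets were not removed. Removing the highest Scrublet scores (scanpy 1.11.5, at 0.8% per 1000 cells) was an alternative. UMIs were summed per mouse and group, for mice with at least 10 BAMs, and tested with edgeR 4.0.16 (R 4.3.3; TMM, filterByExpr, quasi-likelihood F-test, Benjamini-Hochberg adjustment over all genes, threshold 0.05). SE was the log2 difference divided by the square root of F. DESeq2 1.42.0 was an alternative. CPM were taken over the summed UMIs of a group in a mouse. Shares were compared by exact permutation over mice (scipy 1.17.1), and the 6 share comparisons between cell groups were added after the values were seen. The tests were checked on simulated counts.

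Genes were named if they belonged to the limits or the markers, if they were among the 12 largest changes in each direction that held in every mouse, if they were among the 4 with the lowest p or the 4 with the highest level in a list, or if they had been called in an earlier analysis. Any other gene is to be read as chosen after its values were seen, whether or not it is marked so. The study's text and the labels differ on the strain and sex of the mice, and the labels are given here.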

Additional observations from a re-analysis of the deposited data

Results flagged for a closer look

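Among 44 groups of 4 mice examined, 4 held a mouse far from the other 3, and chance alone gives about 1 such group in 20. In saline mouse 4, 44.4% of BAMs were MHC class II-high, where the next mouse had 5.71%. The summed level of the MHC class II and costimulation genes in BAMs of saline mouse 4 was 4523 CPM, where the next had 2018 CPM. In ancrod mouse 3 the immediate early and dissociation stress genes summed to 13423 CPM, where the next ancrod mouse had 10886 CPM. In ancrod mouse 2 the astrocyte markers summed to 1460 CPM, where the next ancrod mouse had 176 CPM, and 89.98% of them came from 1 BAM.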

How the results depend on the processing

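Between treatments edgeR called 0 genes in BAMs, against 1 with DESeq2 (Lpl, log2 difference 1.80, DESeq2 adjusted p = 0.0371) and 0 to 1 when a mouse was left out. The difference in ancrod effect from microglia gave 0 genes, against 1 with DESeq2, 9 without the filter on low counts and 0 to 4 when a mouse was left out. That from infiltrating macrophages gave 0 genes, against 1, 5 and 0 to 1. At full depth the dividing share of BAMs was 12 percentage points above Lyve1- and Cd163-low macrophages and 9.25 above infiltrating macrophages, where thinning to 5000 UMIs, which also leaves out shallower cells, gave 2.03 and -3.13, and the cause was not tested. Leaving out a mouse moved the difference between treatments from 0.0394 to 0.197 percentage points for the share of cells, from 0.105 to 0.289 for that of Tyrobp-positive cells, from -15.9 to -1.08 for the class II-high share and from 0.424 to 4.87 for the dividing share. Counts of genes differing ranged over the alternatives, mice left out included, from 5343 to 6228 against microglia, 2732 to 3669 against Lyve1- and Cd163-low macrophages and 3212 to 4500 against infiltrating macrophages. Leaving out a mouse moved the class II-high share of BAMs relative to Lyve1- and Cd163-low macrophages from -10.7 percentage points (without saline mouse 4) to -3.08. Of the alternative values for comparisons, 185 were unchanged, 12 moved, 1 reversed direction and 2 passed where the main test did not. Unchanged meant the same direction and side of the threshold for shares, and within 1.5-fold for counts of genes. Shares were judged here on unadjusted p. With a mouse left out, exact permutation p reached 0.03125 for the class II-high share against infiltrating macrophages and the dividing share against microglia. These p were not adjusted, and they lie above the exact permutation p of 0.0156 that gave an adjusted p of 0.0469 with all 8 mice. A pass after adjustment is thus not shown for them. Of the values for the genes named by rule between treatments, none of which passed the main test, 155 changed sign under an alternative, 1 passed (Lpl with DESeq2) and 2439 did neither. Cd44 and Bag3, named after their values were seen, are outside this count and passed without saline mouse 3 and saline mouse 4. In the comparisons with microglia, Lyve1- and Cd163-low and infiltrating macrophages, all 312, 312 and 311 such values kept direction and call.

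With the replicate number as a block, the differences were 0.129 (exact permutation p = 0.625), 0.198 (exact permutation p = 0.25), -11.3 (exact permutation p = 0.25) and 2.69 percentage points (exact permutation p = 0.875) for the same 4 shares, and edgeR called 0 genes. The numbers were not taken as pairs: mice 1 to 3 of both groups share 1 batch and both mice 4 the other, and correlations of deviations between same-numbered mice were -0.07, -0.03, 0.05 and 0.02. A test over 4 pairs cannot reach the threshold of 0.05. Genes of class II-high against other BAMs were not compared, since no mouse had 10 BAMs on both sides. The test of genes summed 13 to 45 BAMs per mouse, and small changes may have been missed. Recovery was not examined by the level of a gene.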

Other observations

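Stress-response, inflammatory, coagulation and protease genes were counted in the same comparisons. Among all genes tested, 17.8% were higher and 17.8% lower in BAMs than in Lyve1- and Cd163-low macrophages. These shares were 20.5% and 20.2% against infiltrating macrophages and 23% and 28.8% against microglia. Of 15 immediate early and dissociation stress genes, 8 were higher and 1 lower than in Lyve1- and Cd163-low macrophages, 11 higher and 1 lower than in infiltrating macrophages, and 5 higher and 6 lower than in microglia. Of 21 inflammatory cytokines and innate receptors tested, 11 were lower and 6 higher than in Lyve1- and Cd163-low macrophages. Il1b, the inflammasome cytokine, was at a median of 54.6 CPM in BAMs against 515 CPM in infiltrating macrophages, a log2 difference of -3.19 in edgeR's test. Of 10 coagulation and fibrinolysis genes tested against the Lyve1- and Cd163-low cells, 5 were lower and 2 higher, and of 10 matrix proteases and inhibitors 7 were lower and 1 higher.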
